A study of Mus musculus with 16 samples.

Results

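The myogenic regulatory factors and genes used to recognise satellite cells were measured in mouse hamstring muscle 2 days after surgery. Every probe of the raw table whose symbol is 1 of 10 listed genes was taken: Myod1, Myog, Myf5, Myf6, Pax7, Mef2c, Cdh15, Met, Sdc4 and Mstn. That gave 12 of 25697 probes, for 9 of the 10 genes and of 18097 gene symbols with a probe; Mef2c had 3 probes, Myog had 2, and 7 genes had 1 each. Cdh15, the adhesion protein M-cadherin of satellite cells, had 0 probes under that symbol and was not analysed here. A probe was tested if its detection p, which compares it with the negative control beads of its array, was under 0.05 on at least 3 of 15 arrays. Of the 12 probes, 8 passed, for Myod1, Myog, Myf6, Mef2c and Sdc4, out of 14763 probes that passed in all. The probes of Pax7, Myf5, Met and Mstn did not pass, so the tested probes lack the defining genes of resting satellite cells.

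Female mice had a spinal cord injury (SCI) between vertebrae T12 and T13 or sham surgery, and their muscle was injected with saline or with cardiotoxin (CDTX), a venom peptide that lyses muscle fibres. The groups were Sham+Saline, Sham+CDTX, SCI+Saline and SCI+CDTX, with 4 arrays in each, and strain and age are not given in the sources used here. Whole muscle RNA was hybridised to Illumina BeadChips, and the series' design text names SCI+CDTX as the condition in which heterotopic bone forms. The labels state that SCI+CDTX replicate 2 was left out of the authors' final analysis, so the fit used the other 15 arrays.

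Satellite cells lie beneath the basal lamina of the muscle fibre and are marked at rest by the transcription factor Pax7. After injury they divide, express Myf5 and Myod1 as myoblasts, and then Myog as they leave the cell cycle and fuse. Myod1, Myf5, Myog and Myf6 are basic helix-loop-helix proteins that bind the E-box motif CANNTG together with E proteins, and Mef2c is a MADS-box factor that acts with them on muscle promoters. Myog, Myod1 and the embryonic acetylcholine receptor genes are also known to rise in mature fibres that lose nerve input, so these transcripts are not particular to satellite cells. Met is the receptor for hepatocyte growth factor, which activates satellite cells. Sdc4 is a heparan sulfate proteoglycan found on satellite cells and on many other cells, and Mstn, myostatin, is a secreted inhibitor of muscle growth.

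The probes behind the tested values are 50-base oligonucleotides, and their first 30 bases are shown because the Mef2c and Myog results turn on how separate probes of a gene behave. They are written 5′ to 3′ in lower case, as the array annotation in the deposited table gives them, with no base marked.
Myod1 ILMN_1233507: caaaccccaatgcgatttatcaggtgcttt
Myog ILMN_2863674: ctgccctgagttgagagagaagggggagga
Myog ILMN_2621812: tgtagcagggggcttttaagtggggctgtc
Myf6 ILMN_1213941: ccacctcaagtgaaagtccttcgccttggg
Mef2c ILMN_2732465: catccaagcacgctcacaaacctgcaggca
Mef2c ILMN_2887992: ggtttggacagacccggcaagtggtgacta
Mef2c ILMN_1214950: gaaagccccgatcctgactcctcttatgca
Sdc4 ILMN_2728729: gaagtcattcctcggttgcactagccacac
The 2 Myog probes start at transcript positions 1147 and 780. The Mef2c probes start at positions 2207, 2146 and 706 in the order shown, and ILMN_2887992 was designed on an earlier version of the Mef2c transcript record than the other 2. Its listed chromosome 13 position lies 338.3 kb from ILMN_2732465 and 376.0 kb from ILMN_1214950, whereas Mef2c spans 163.1 kb in RefSeq GRCm38.p6. The genome build of the listed positions is not named, so no probe coordinates are given.

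Mean raw intensity was 230.5 to 373 per array, and the 4 Sham+Saline arrays (230.5 to 277) were dimmer than the other 12. Between 11114 and 13694 probes were detected per array. All SCI arrays were on 1 slide and all sham arrays on the other, so slide and surgery cannot be told apart; each CDTX comparison lies within 1 slide. A score was taken from 2625 non-member genes with 2 tested probes, as the first principal component of the differences between the paired probes; it held 33.6% of their variance. It stood at 17.9 to 20.3 on the 4 Sham+CDTX arrays, at 14.3 on SCI+CDTX 2, and at −14.1 to −2.98 on the other 11. For the members, values that rest on Sham+CDTX are also given from a fit of all 16 arrays with this score as a covariate. The score is high on every Sham+CDTX array, so that fit can hardly separate it from the group and leans on SCI+CDTX 2. The pathway and marker lists were not refitted with the score. The muscle fibre marker genes (Ckm, Acta1, Des and others) passed the filter in 12 of 12 cases. Their summed normalized intensity was 147649 to 155606 in SCI+CDTX, 142690 to 159003 in SCI+Saline, 142433 to 154446 in Sham+CDTX and 158722 to 166729 in Sham+Saline. In whole muscle, fewer cells of a type and less RNA per cell cannot be told apart.

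In saline-injected muscle the myogenic factors were higher after SCI. Of the 8 tested probes, 5 rose in SCI+Saline against Sham+Saline and 0 fell (limma, adjusted p under 0.05), where 14.8% of all tested probes rose and 14.6% fell (29.5% in all). The 5 were both Myog probes, Myod1, Myf6 and Sdc4, with rises of 0.60 to 3.34 on the log2 scale, and no Mef2c probe was called. After sham surgery CDTX raised 3 of the 8 probes (Myod1, Myog ILMN_2863674 and Sdc4) and lowered 0, against a background of 23.1% higher and 25.8% lower (48.9% in all). In SCI mice CDTX raised 0 and lowered 6 (all 3 Mef2c probes, both Myog probes and Myf6), against 20.4% higher and 22.5% lower (42.9% in all). Between the CDTX groups, 2 probes were higher in SCI+CDTX (Myog ILMN_2863674 and Myf6) and the 3 Mef2c probes were lower, against 14.9% in each direction (29.8% in all). These comparisons share groups, so they are not independent of each other. The median log2 difference over the 8 probes was 1.09, 0.33, −1.09 and −0.14 in these 4 comparisons, and −0.01, −0.04, −0.05 and 0.01 over all tested probes.

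**Figure D1:**
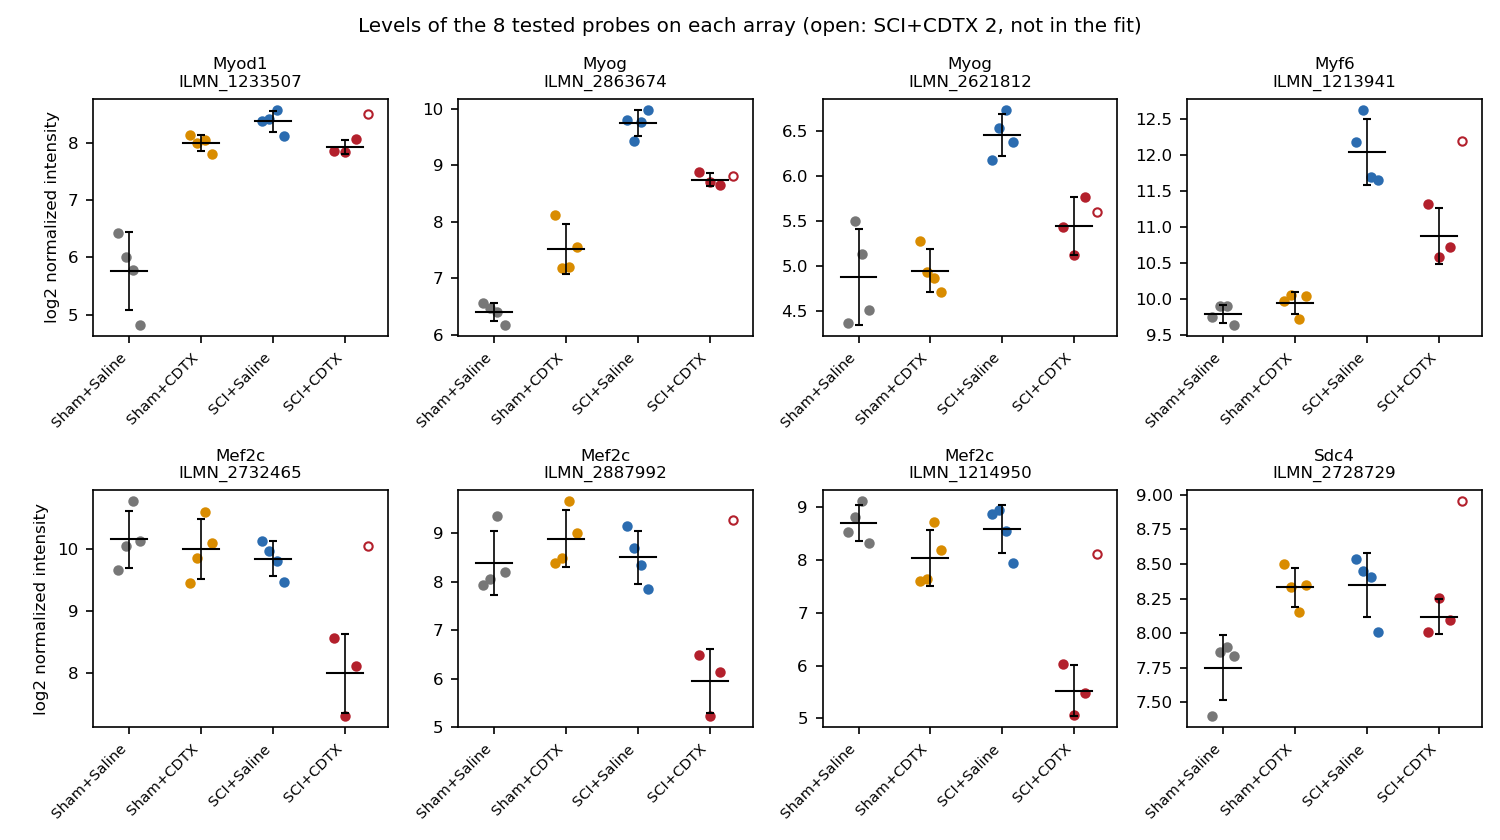
Log2 normalized intensity (y axis) of each tested probe on each array, by group (x axis), with group mean and SD bars over the arrays in the fit (n = 3 for SCI+CDTX, n = 4 for the others); the open circle is SCI+CDTX 2 from a normalization of all 16 arrays. Myod1 lies lowest in Sham+Saline, Myog ILMN_2863674 separates all 4 groups, and the 3 Mef2c probes are low on the 3 fitted SCI+CDTX arrays but not on SCI+CDTX 2.

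Myod1, the factor that commits cells to the myoblast state, was low in Sham+Saline and at nearly the same level in the other 3 groups. Its raw intensity in Sham+Saline was 125.1, 111.7, 113.0 and 103.7 on arrays 1 to 4, just above the lowest detected signals of those arrays (96.6 to 102.3). On the log2 normalized scale Sham+Saline was at 6.42, 6.01, 5.78 and 4.82. Sham+CDTX was at 8.13, 7.998, 8.04 and 7.80, and SCI+Saline at 8.38, 8.41, 8.58 and 8.12. SCI+CDTX 1, 3 and 4 were at 7.86, 7.85 and 8.06. Every Sham+Saline array was below every other array. CDTX raised Myod1 4.71-fold after sham surgery (log2 difference 2.24 ± 0.23 SE, adjusted p = 3.2e-07). SCI raised it 6.13-fold in saline-injected muscle (2.62 ± 0.23, adjusted p = 1.7e-07). Without background correction these log2 differences were 1.28 and 1.58, and both stayed called; with median scaling the CDTX difference was 2.88. With the score in the fit the CDTX difference after sham surgery was 1.95 (adjusted p = 0.036). In SCI mice the CDTX difference was −0.45 (95% interval −0.97 to 0.07, adjusted p = 0.16), although the fitted SCI+CDTX arrays were all below the SCI+Saline arrays. That difference was called without background correction (−0.35, adjusted p = 0.030), with the 2 groups fitted alone (−0.45, adjusted p = 0.047) and without Sham+Saline 4 (−0.45, adjusted p = 0.036). The CDTX groups differed by −0.07 (95% interval −0.59 to 0.45), and by 0.25 with the score in the fit (adjusted p = 0.87). SCI+CDTX 2 was at 8.51 in the normalization of all 16 arrays, above the other SCI+CDTX arrays (7.89 to 8.10).

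Myf5, which acts beside Myod1 in myoblasts, was detected on 0 of 16 arrays. Its raw intensity was 87.4 to 94.4 in Sham+Saline, 92.2 to 98.5 in Sham+CDTX, 99 to 102.9 in SCI+Saline and 95.3 to 109.8 in SCI+CDTX. The highest of these values was on SCI+CDTX 1, with a detection p of 0.058. The lowest detected signal per array was 96.6 to 111.9 and was lower on the dim Sham+Saline arrays, as was the Myf5 signal there.

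Among the tested members, Myog, the factor of terminal differentiation, was the one whose main probe, ILMN_2863674, had no overlap between any pair of groups. Groups held 3 or 4 arrays, and the share of all tested probes without such overlap was not counted. The raw intensity of ILMN_2863674 was 129.3, 123.1, 130.6 and 132.8 in Sham+Saline and 397.9, 275.1, 281.7 and 317.0 in Sham+CDTX. It was 1017.2, 763.2, 1085.4 and 1150.2 in SCI+Saline, and 670.4, 559.8 and 543.7 on SCI+CDTX 1, 3 and 4. The order was thus Sham+Saline, Sham+CDTX, SCI+CDTX and SCI+Saline, at log2 levels of 6.41 ± 0.17, 7.52 ± 0.44, 8.74 ± 0.12 and 9.74 ± 0.23 (SD, n = 4, 4, 3 and 4). SCI raised Myog 10.1-fold in saline-injected muscle (log2 difference 3.34 ± 0.19 SE, adjusted p = 4.1e-10). CDTX raised it 2.16-fold after sham surgery (1.11 ± 0.19, adjusted p = 6.4e-05) and lowered it 2.001-fold after SCI (−1.001 ± 0.20, adjusted p = 0.00055). With CDTX, SCI muscle was 2.34-fold above sham muscle (1.23 ± 0.20, adjusted p = 0.00014). This last difference was 1.07 with the score in the fit and was not called there (adjusted p = 0.12), while the sham CDTX difference was 1.37 in that fit (adjusted p = 0.047). With median scaling the sham CDTX difference was 1.89 and the SCI difference in saline-injected muscle was 3.98. The latter was 2.50 without background correction. SCI+CDTX 2 was at 8.81, within the range of the other SCI+CDTX arrays (8.69 to 8.91).

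The second Myog probe, ILMN_2621812, was much dimmer and was detected on 14 of 16 arrays. Its raw intensity was 91.9, 103.0, 102.3 and 99.5 in Sham+Saline, where it was detected on 2 of 4 arrays, and 111.8 to 123.6 in Sham+CDTX. It was 144.0 to 184.3 in SCI+Saline and 124.3 to 148.2 on the 3 fitted SCI+CDTX arrays. SCI+Saline was again the highest group. On the raw scale Sham+CDTX lay above Sham+Saline, while on the log2 normalized scale they overlapped, at 4.71 to 5.28 and 4.36 to 5.49. The probe rose with SCI in saline-injected muscle (1.58 ± 0.22 SE, adjusted p = 2.9e-05) and fell with CDTX in SCI mice (−1.02 ± 0.24, adjusted p = 0.0021). Without background correction the first of these was 0.61, and with an offset of 50 it was 0.93; both were called. Its sham CDTX difference was 0.07 (95% interval −0.39 to 0.53), so the rise seen with ILMN_2863674 was not seen with this probe. Its difference between the CDTX groups was 0.50 (adjusted p = 0.13). That difference was called with median scaling (0.55, adjusted p = 0.048) and with only these 2 groups fitted (0.59, adjusted p = 0.026). With the score in the fit the sham CDTX difference of this probe was 0.22 and its difference between the CDTX groups 0.45 (adjusted p = 0.84 and 0.71). Over 15 arrays, which share their 4 groups, the levels of the 2 Myog probes correlated at r = 0.838, and their deviations from the group means at r = 0.180.

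Myf6, also called Mrf4, is the family member most abundant in adult fibres. Its raw intensity was 623.4, 643.9, 784.0 and 741.4 in Sham+Saline and 1185.9, 1284.3, 1087.6 and 1270.2 in Sham+CDTX. It was 5573.2, 7583.6, 4136.2 and 3625.7 in SCI+Saline, and 2905.6, 1667.3 and 1841.0 on SCI+CDTX 1, 3 and 4. The raw gap between the sham groups fell within their spread after normalization, at log2 levels of 9.80 ± 0.12 and 9.95 ± 0.15 (SD, n = 4 each). SCI+Saline was at 12.03 ± 0.46 (n = 4) and SCI+CDTX at 10.88 ± 0.39 (n = 3). SCI raised Myf6 4.71-fold in saline-injected muscle (2.23 ± 0.20 SE, adjusted p = 1.7e-07) and 1.90-fold in CDTX-injected muscle (0.92 ± 0.21, adjusted p = 0.0031). CDTX lowered it 2.23-fold after SCI (−1.16 ± 0.21, adjusted p = 0.00029). After sham surgery the CDTX difference was 0.15 (95% interval −0.26 to 0.57). Median scaling moved it to 0.63 (adjusted p = 0.019); that scaling moved the median of all probes in this comparison by 0.32. With the score in the fit it was −1.82 (adjusted p = 0.013), and the difference between the CDTX groups was 2.47. SCI+CDTX 2 was at 12.19, within the range of SCI+Saline (11.67 to 12.64) and above the other SCI+CDTX arrays (10.61 to 11.34).

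Mef2c differed from the helix-loop-helix factors, in that no group rose and the 3 fitted SCI+CDTX arrays were low. The raw intensity of ILMN_2732465, its brightest probe, was 587.8, 722.8, 1434.2 and 1039.3 in Sham+Saline and 841.0, 1149.4, 1811.4 and 1310.7 in Sham+CDTX. It was 1303.9, 1128.7, 1113.9 and 842.7 in SCI+Saline, and 561.7, 277.3 and 406.4 on SCI+CDTX 1, 3 and 4. All 3 were below every array of the other groups. The log2 levels were 10.16 ± 0.46, 10.00 ± 0.48 and 9.85 ± 0.29 in Sham+Saline, Sham+CDTX and SCI+Saline (SD, n = 4 each), and 7.997 ± 0.64 in SCI+CDTX (n = 3). CDTX lowered this probe 3.61-fold after SCI (−1.85 ± 0.30 SE, adjusted p = 7.7e-05), and SCI lowered it 4.02-fold in CDTX-injected muscle (−2.01 ± 0.30, adjusted p = 6.0e-05).

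The other 2 Mef2c probes were also lowest in SCI+CDTX, with larger differences. ILMN_2887992 had a raw intensity of 205.2, 127.7 and 168.2 on SCI+CDTX 1, 3 and 4, against 214.7 to 1047.1 over the other 3 groups. ILMN_1214950 was at 171.5, 122.4 and 136.2 on those arrays, against 296.8 to 619.7. Both were lower with CDTX after SCI, at log2 differences of −2.56 ± 0.38 and −3.06 ± 0.29 (SE, adjusted p = 3.3e-05 and 8.0e-07). Both were lower with SCI in CDTX-injected muscle, at −2.93 ± 0.38 and −2.51 ± 0.29 (adjusted p = 1.5e-05 and 5.5e-06). Neither was called with SCI in saline-injected muscle, at 0.12 and −0.11. For ILMN_1214950 the sham CDTX difference was −0.66 (adjusted p = 0.051). It fell on the other side of the threshold under several alternatives, among them the stricter detection filter (adjusted p = 0.043) and the fit without Sham+CDTX 3 (−0.89, adjusted p = 0.011). For ILMN_2887992 it was 0.50 (adjusted p = 0.25), and it was called with median scaling (1.16, adjusted p = 0.014) and without Sham+Saline 3 (0.82, adjusted p = 0.048). Over the 15 arrays the pairwise correlation of the 3 Mef2c probes was 0.910 to 0.965 for levels and 0.870 to 0.952 for deviations from group means. The probe with the distant listed position, ILMN_2887992, was among the most alike pair.

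The Mef2c result rests on which SCI+CDTX arrays are used. SCI+CDTX 2 had a raw intensity of 1481.3, 920.7 and 472.6 on ILMN_2732465, ILMN_2887992 and ILMN_1214950, and log2 levels of 10.06, 9.28 and 8.11. Each lay within the range of the Sham+CDTX arrays and above the other SCI+CDTX arrays. With all 16 arrays, the 3 Mef2c probes stayed lower with CDTX after SCI, at −1.34, −1.74 and −2.42 (adjusted p = 0.015, 0.028 and 0.00056). Against Sham+CDTX they were at −1.49, −2.11 and −1.88 with all 16 arrays (adjusted p = 0.016, 0.019 and 0.0091). Without background correction the CDTX differences of ILMN_2887992 and ILMN_1214950 after SCI were −1.62 and −1.86, and both were called. With the score in the fit, the 3 differences between SCI+CDTX and Sham+CDTX turned positive, to 0.30, 0.79 and 0.28 (adjusted p = 0.86, 0.66 and 0.88). In the same fit Mef2c was lower in Sham+CDTX than in Sham+Saline, by −3.04, −4.16 and −4.13 (adjusted p = 0.0083, 0.0059 and 0.0027). SCI+CDTX 2 was the one array outside Sham+CDTX with a high score, and what sets it and the Sham+CDTX arrays apart on paired probes was not tested.

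**Figure D2:**
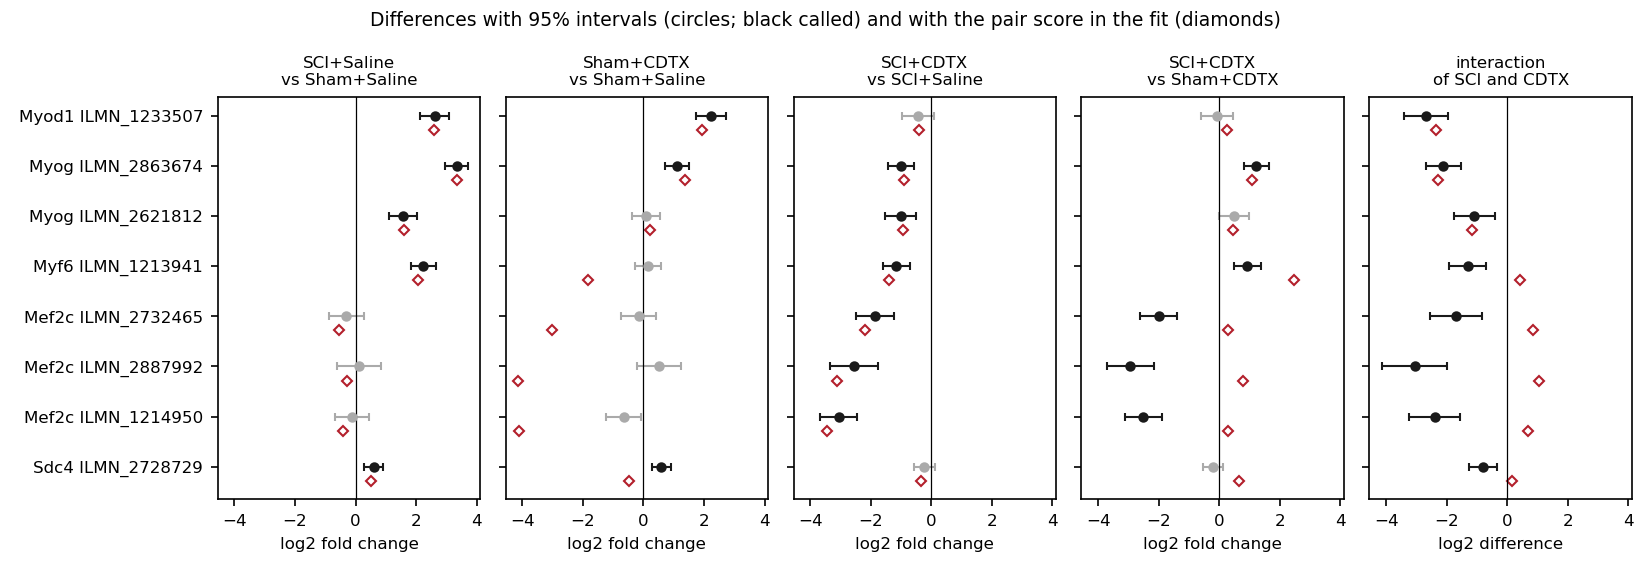
Log2 difference (x axis) of each tested probe (y axis) in the 4 pairwise comparisons and in the interaction; circles with 95% intervals are the fit of 15 arrays (black where the adjusted p was under 0.05, grey otherwise), and red diamonds are the fit of all 16 arrays with the paired-probe score. The score left the SCI differences in saline-injected muscle and the CDTX differences in SCI mice in place. It moved Mef2c, Myf6 and Sdc4 most wherever Sham+CDTX enters. With the score, Myog ILMN_2863674 was no longer called between the CDTX groups, nor was Myod1 in the interaction.

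Among the satellite cell genes, Pax7 was detected on 0 of 16 arrays. Its raw intensity was 83.7 to 90.6 in Sham+Saline, 88.9 to 105.3 in Sham+CDTX, 93.6 to 102.8 in SCI+Saline and 95.9 to 100.5 in SCI+CDTX, and its lowest detection p was 0.078. Met was detected on 1 of 16 arrays, Sham+CDTX 3, at a raw intensity of 109.8, and was at 87.9 to 105.2 on the other 15. Its lowest detection p was 0.029. A change in Pax7, Myf5 or Met was not detectable at these signals; with no detection filter the lowest adjusted p over the 5 comparisons was 0.59 for Pax7, 0.68 for Myf5 and 0.29 for Met.

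Sdc4 was the one satellite cell surface gene among the 10 that passed the filter. Its log2 level was 7.40, 7.86, 7.90 and 7.84 in Sham+Saline and 8.50, 8.33, 8.15 and 8.35 in Sham+CDTX. It was 8.54, 8.45, 8.40 and 8.01 in SCI+Saline, and 8.01, 8.25 and 8.10 on SCI+CDTX 1, 3 and 4. Sham+Saline lay below every other array, and the other 3 groups overlapped. CDTX raised Sdc4 1.498-fold after sham surgery (0.58 ± 0.15 SE, adjusted p = 0.0034), and SCI raised it 1.52-fold in saline-injected muscle (0.60 ± 0.15, adjusted p = 0.0053). The first of these was 1.32 with median scaling and −0.49 with the score in the fit (adjusted p = 0.44). In SCI mice the CDTX difference was −0.23 (95% interval −0.57 to 0.11), and the CDTX groups differed by −0.21 (−0.55 to 0.13), or by 0.65 with the score in the fit (adjusted p = 0.29). SCI+CDTX 2 was at 8.95, the highest Sdc4 level of the 16 arrays.

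Mstn was detected on 0 of 16 arrays, at raw intensities of 80.6 to 103.3 and a lowest detection p of 0.21. Its probe starts at transcript position 2268 and has a GC content of 34%, against 42% to 58% for the 8 tested probes. The Myf5 probe is at 30%, while those of Pax7 (58%) and Met (56%) lie at the upper end of that range. Whether these probes can report their transcripts in muscle was not tested.

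**Figure D3:**
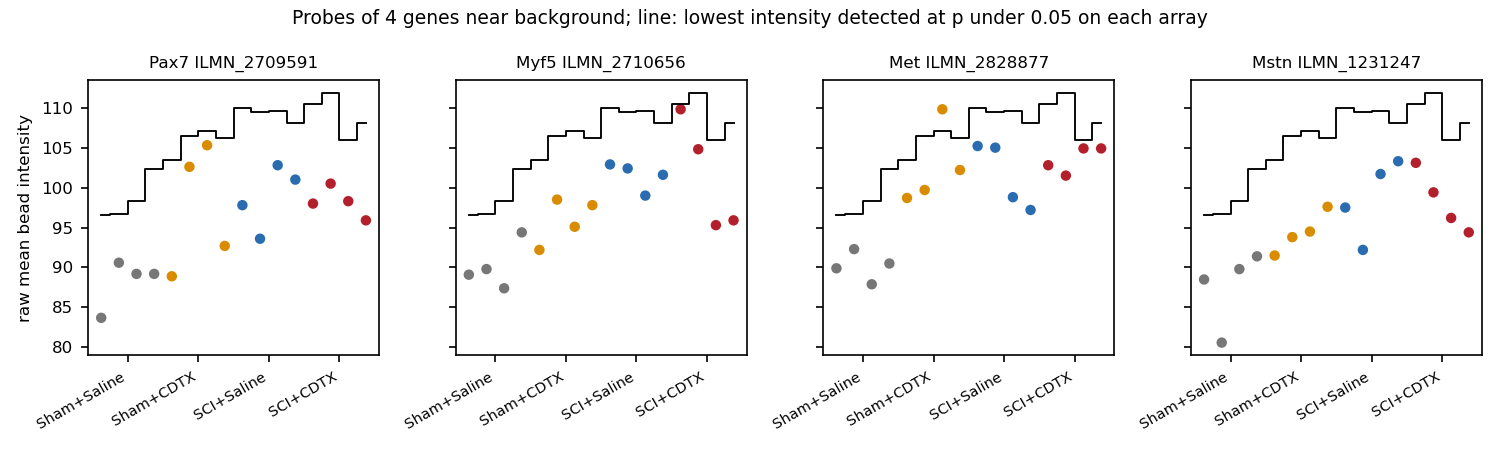
Raw mean bead intensity (y axis) of the Pax7, Myf5, Met and Mstn probes on each of the 16 arrays, ordered by group (x axis; replicates 1 to 4 within a group); the black line is the lowest intensity detected at a detection p under 0.05 on that array. All points lie below the line except Met on Sham+CDTX 3, at 109.8.

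The interaction term asks whether CDTX changed a probe by a different amount after SCI than after sham surgery; an additive slide effect cancels in it. All 8 tested probes, of 5 genes, were called, each negative, where 11.6% of all tested probes were called lower and 12% higher (23.6% in all). The probes of Mef2c report the same gene, as do those of Myog, so the 8 are not independent. The median over the 8 probes was −1.90, against −0.01 over all tested probes. For Myod1 the sum of the separate SCI and CDTX differences would have placed SCI+CDTX at a log2 level of 10.61, and the observed mean was 7.92 (interaction −2.69 ± 0.34 SE, adjusted p = 3.3e-05). Myod1 was just above background in Sham+Saline, so its additive level depends on the background correction. Its interaction was −3.14 to −1.63 over the alternative settings. For Myog ILMN_2863674 the additive level was 10.86 and the observed mean was 8.74 (−2.11 ± 0.27, adjusted p = 3.9e-05). Myf6 was at 10.88 against 12.19 (−1.31 ± 0.29, adjusted p = 0.0032), and Sdc4 at 8.12 against 8.93 (−0.81 ± 0.22, adjusted p = 0.012).

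The sign of the interaction covered different patterns. Myod1 and Sdc4 rose with either injury alone and were no higher with both, Myog and Myf6 were lower with both than after SCI alone, and Mef2c was low on the 3 fitted SCI+CDTX arrays. For Mef2c ILMN_2732465, ILMN_2887992 and ILMN_1214950 the interaction was −1.69, −3.06 and −2.40 (adjusted p = 0.0052, 0.00033 and 0.00030). The dim Myog probe ILMN_2621812 gave −1.09 (adjusted p = 0.020), which was not called without SCI+CDTX 3 (−0.92, adjusted p = 0.068) or with no detection filter (adjusted p = 0.056). With all 16 arrays, 3 of the 8 interactions were called (Myod1 and both Myog probes). With the score in the fit, only that of Myog ILMN_2863674 was called (−2.28, adjusted p = 0.020). In that fit Myod1 was at −2.34 (adjusted p = 0.085), and the Mef2c, Myf6 and Sdc4 interactions turned positive. The shares of all tested probes called in these alternative fits are not given here.

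**Figure D4:**
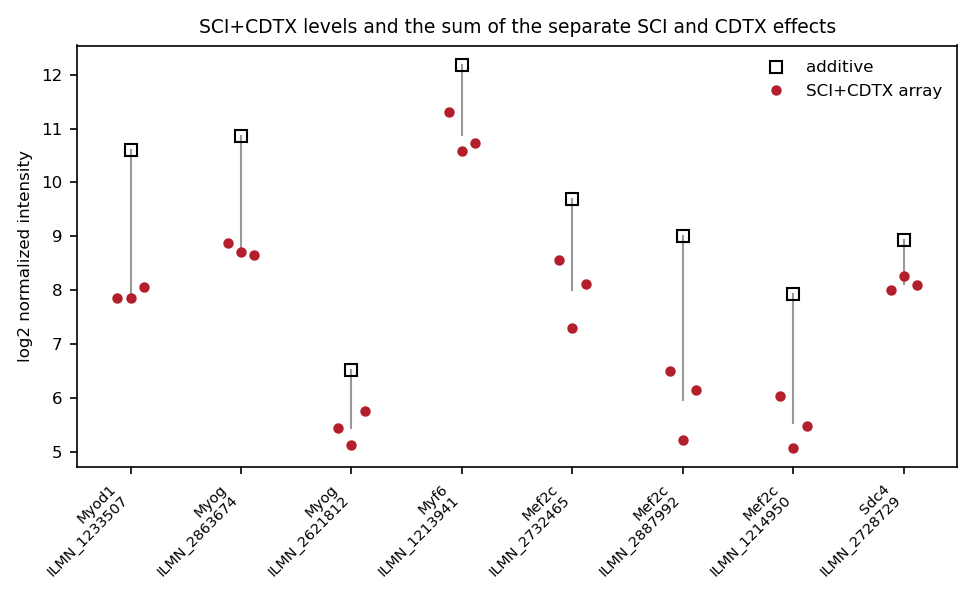
Log2 normalized intensity (y axis) of each tested probe (x axis) on SCI+CDTX 1, 3 and 4 (red circles), beside the level given by adding the separate SCI and CDTX log2 differences to Sham+Saline (open squares). All 3 arrays lie below the additive level for each of the 8 probes, by means of 0.81 (Sdc4) to 3.06 (Mef2c ILMN_2887992). The share of all tested probes with all 3 arrays below was not counted.

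Markers of other cells moved with CDTX in the same arrays. Of 9 tested monocyte and macrophage markers (of 10 listed; Ccr2 was not detected on any array), 9 rose with CDTX in each surgery group. Their summed normalized intensity was 13375 to 20123 in SCI+CDTX and 17172 to 19798 in Sham+CDTX, against 909.3 to 4358 in SCI+Saline and 1029 to 2107 in Sham+Saline. Fibroadipogenic progenitor markers rose for 6 of 6 genes with CDTX after sham surgery and for 4 of 6 after SCI, with sums of 20206 to 23597 in Sham+CDTX and 12033 to 15076 in SCI+CDTX. The sums were 7488 to 15771 in Sham+Saline and 8129 to 13184 in SCI+Saline, so SCI+CDTX overlapped both saline groups. A smaller share of fibre markers was called: of 12, 2 rose and 2 fell with CDTX after sham surgery, and 0 rose and 2 fell after SCI. Most were very bright in every group, as Ckm at mean log2 levels of 13.88 to 14.09, and such probes dominate the sums. Whether a loss of fibre RNA would show at such levels was not tested. Mb was at 12.06 in SCI+CDTX and 13.35 in SCI+Saline. In Sham+CDTX and Sham+Saline, Myh2 was at 12.36 and 13.30, and Myh1 at 12.21 and 11.51. Over all genes, read at the brightest tested probe of each, 23.7% rose and 26.9% fell with CDTX after sham surgery. After SCI these shares were 22.1% and 22.2%. Their part in the differences of the myogenic genes was not tested.

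With SCI in saline-injected muscle, 3 of the 9 macrophage markers rose, 0 of 12 fibre markers rose and 2 fell, and 5 of 6 endothelial markers fell. Over all genes 14.7% rose and 15.8% fell in that comparison. Endothelial sums were 693.9 to 863.0 in SCI+Saline and 662.0 to 688.4 in Sham+CDTX, against 1021 to 1353 in Sham+Saline and 1018 to 1380 in SCI+CDTX. These sums lean on Cldn5, at mean log2 levels of 9.07 in SCI+CDTX and 6.83 in Sham+CDTX. Pecam1, Tie1 and Kdr were also higher in SCI+CDTX than in Sham+CDTX, but Cdh5 (6.15 and 6.45) and Tek (7.35 and 7.62) were lower. Against Sham+Saline, Cdh5, Kdr, Tek and Tie1 were lower in SCI+CDTX, and Cldn5 and Pecam1 higher. Smooth muscle and pericyte markers fell for 3 of 6 genes with SCI in saline-injected muscle and 4 of 6 with CDTX after sham surgery (15.8% and 26.9% of all genes). Neutrophil marker sums ranged widely within the saline groups, from 151.9 to 10553 in Sham+Saline and from 2010 to 12279 in SCI+Saline. They were 650.1 to 957.2 in Sham+CDTX and 3083 to 5155 in SCI+CDTX. Of 5 tested neutrophil markers, 2 rose and 0 fell with CDTX in each surgery group. Of all genes, 23.7% rose with CDTX after sham surgery and 22.1% after SCI. Lymphocyte markers (3 tested of 8 listed; Cd8a was not detected on any array) were at 123.2 to 203.0 in SCI+CDTX and 58.8 to 124.3 elsewhere. Of 4 tested Schwann cell markers, 2 fell with SCI in saline-injected muscle. The part of these cells in the myogenic differences was not tested.

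The wider pathway was followed through lists of other genes, read at the brightest tested probe of each gene; 1 such probe per gene gave 10952 genes. For differentiation and fusion, 26 of 29 listed genes had a probe and 23 were tested. With SCI in saline-injected muscle 7 rose and 9 fell, against 14.7% and 15.8% of all genes, and the list median was −0.05. Chrng, the embryonic gamma subunit of the acetylcholine receptor, rose by 3.05 ± 0.27 (SE, adjusted p = 1.4e-07), and Musk, the receptor kinase of the neuromuscular junction, by 2.68 ± 0.14 (adjusted p = 2.5e-10). Cdkn1c, a cell cycle inhibitor, fell by 1.70 ± 0.25 and Itgb1bp2, the integrin-binding protein melusin, by 1.60 ± 0.24. With CDTX after sham surgery 8 rose and 6 fell (23.7% and 26.9% of all genes), with Chrng at 2.51 ± 0.27 and Chrna1, the alpha subunit, at 1.43 ± 0.15.

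After SCI, CDTX raised 5 and lowered 8 of the 23 differentiation and fusion genes, against 22.1% and 22.2% of all genes. Musk was among the lowest (−1.52 ± 0.16 SE, adjusted p = 1.3e-06), as was Actc1, the cardiac actin of embryonic muscle (−1.20 ± 0.22, adjusted p = 0.00029). Nes, which encodes nestin, was the highest (1.32 ± 0.22, adjusted p = 9.1e-05). Between the CDTX groups 5 were higher and 3 lower in SCI+CDTX (16.4% and 15.8% of all genes), with Actc1 at −1.86 ± 0.22 and the muscle protease gene Capn3 at −1.61 ± 0.21. The interaction was negative for 6 and positive for 3 (11.6% and 13.8%). Chrng had an interaction of −2.42 ± 0.39 and Musk of −2.11 ± 0.21 (adjusted p = 0.00025 and 4.5e-06), and Myh8, perinatal myosin, had one of 1.94 ± 0.49.

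Of 29 partners and inhibitors of the myogenic factors, 26 had a probe and 22 were tested. With SCI in saline-injected muscle 9 rose and 5 fell, against 14.7% and 15.8% of all genes, and the list median was 0.30 (−0.02 over all genes). Id2, which binds E proteins and keeps them from the myogenic factors, rose by 2.44 ± 0.24 (SE, adjusted p = 5.1e-07) and Hdac4, a repressor of Mef2 proteins, by 1.61 ± 0.24 (adjusted p = 5.1e-05). Srf, the serum response factor, fell by 1.53 ± 0.22 (adjusted p = 4.5e-05). With CDTX after sham surgery 10 rose and 4 fell (23.7% and 26.9% of all genes), with Id2 again the highest at 2.45 ± 0.24. With CDTX after SCI 5 rose and 5 fell (22.1% and 22.2% of all genes), shares near those of all genes, and Sim2 was the lowest at −1.71 ± 0.22 and Hdac7, another Mef2 repressor, the highest at 1.11 ± 0.17. The interaction was negative for 6 genes, with Id2 at −2.88 ± 0.35 (adjusted p = 2.3e-05), and positive for 1, Srf (11.6% and 13.8% of all genes). Between the CDTX groups 3 were higher and 4 lower in SCI+CDTX (16.4% and 15.8%).

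For satellite cell regulators and surface genes other than the members, 28 of 29 had a probe and 21 were tested. CDTX after SCI raised 8 and lowered 5 (22.1% and 22.2% of all genes), and CDTX after sham surgery raised 5 and lowered 2 (23.7% and 26.9%). Sdc3, the other syndecan of satellite cells, rose by 2.12 ± 0.30 (SE) after SCI and 2.62 ± 0.28 after sham surgery, and Vcam1, an adhesion molecule, by 1.33 ± 0.23 after SCI. Vcam1 was also higher with CDTX after sham surgery, at mean log2 levels of 8.96 in Sham+CDTX and 6.65 in Sham+Saline. Its interaction was −0.98 ± 0.32 (adjusted p = 0.031). Cxcr4, a chemokine receptor also found on leukocytes, rose by 2.69 ± 0.28 with CDTX after sham surgery. With SCI in saline-injected muscle 4 rose and 5 fell (14.7% and 15.8% of all genes). The Notch target Hes1 rose by 1.46 ± 0.21 and Ncam1, the neural cell adhesion molecule, by 1.16 ± 0.19 in that comparison, whereas Heyl, another Notch target, fell by 0.96 ± 0.18. Between the CDTX groups 3 were higher and 5 lower in SCI+CDTX (16.4% and 15.8% of all genes), with Cxcr4 the lowest at −1.44 ± 0.30. The interaction was positive for 3 and negative for 4 (13.8% and 11.6%).

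Of 21 genes of the myostatin pathway, 17 had a probe and 13 were tested. Tgfbr1, a type I receptor, rose by 1.53 ± 0.15 (SE) with SCI in saline-injected muscle and by 1.20 ± 0.15 with CDTX after sham surgery. Acvr2b, the type II receptor of myostatin, was lower in the same comparisons, at −1.53 ± 0.21 and −1.93 ± 0.21. The SCI comparison called 2 higher and 2 lower (14.7% and 15.8% of all genes), and the CDTX comparison 3 higher and 4 lower (23.7% and 26.9%). After SCI, CDTX raised 1 gene, Bmp1, a protease that frees myostatin from its propeptide (2.04 ± 0.22), and lowered 1, Tgfbr1 (−0.92 ± 0.16), where 22.1% and 22.2% of all genes were called. Between the CDTX groups 3 were higher and 2 lower (16.4% and 15.8% of all genes), and the interaction was positive for 3 and negative for 1 (13.8% and 11.6%).

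Of 19 genes of the Met and hepatocyte growth factor pathway, 19 had a probe and 12 were tested. CDTX raised 3 and lowered 2 after SCI (22.1% and 22.2% of all genes), and raised 3 and lowered 1 after sham surgery (23.7% and 26.9%). Plau, the urokinase that can activate hepatocyte growth factor, rose by 1.52 ± 0.34 (SE) after SCI and 2.53 ± 0.31 after sham surgery, and its receptor Plaur by 1.57 ± 0.18 and 1.32 ± 0.16. Pik3r1, a regulatory subunit of PI3 kinase, fell by 1.30 ± 0.26 with CDTX after SCI. SCI in saline-injected muscle raised 1 and lowered 1 (14.7% and 15.8% of all genes). Between the CDTX groups 1 was higher and 2 were lower (16.4% and 15.8%), and the interaction was positive for 1 and negative for 3 (13.8% and 11.6%).

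The genes nearest each main probe were ranked by Pearson's r of log2 levels over the 15 arrays among 10952 genes, as a description, since arrays of a group share their condition. Nearest to Myog ILMN_2863674 were Cpne2 (r = 0.973), Tgif1 (0.967) and Apex1 (0.966), and their deviations from group means correlated with those of Myog at 0.250, 0.526 and 0.530. Nearest to Myod1 were Aif1l (0.982), Rhoc (0.950) and Ftsj3 (0.945), with deviations at 0.770, 0.474 and 0.426. For Myf6 they were Fez1 (0.976), Sod1 (0.967) and Arrdc4 (0.967), with deviations at 0.830, 0.628 and 0.603. Mef2c ILMN_2732465 was nearest to Fh1 (0.977), Clip4 (0.966) and Sec15l1 (0.959), whose deviations stayed close to its own at 0.882, 0.888 and 0.870. Sdc4 was nearest to Tsn (0.963), Gsdme (0.932) and Bxdc1 (0.892), with deviations at 0.910, 0.847 and 0.867. The deviations are part of the levels used for the ranking, so high values among the nearest genes follow in part from their selection. They were 0.870 to 0.888 for Mef2c, 0.847 to 0.910 for Sdc4 and 0.250 to 0.530 for Myog. Among the members' main probes, levels correlated at 0.896 for Myf6 and Myog and 0.808 for Myod1 and Myog, but the deviations at −0.111 and 0.269.

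The Myog promoter is shown because Myog was the member with the largest change and because its start region carries motifs of both member families. The 250 bases before its start, in RefSeq GRCm38.p6, are chr1:134289754-134290003 on the + strand. Capitals mark the 2 matches to the E-box CANNTG and the 1 match to the core of the Mef2 site, TANNNNTA with A or T at each N; both motifs were searched on both strands.
Myog promoter: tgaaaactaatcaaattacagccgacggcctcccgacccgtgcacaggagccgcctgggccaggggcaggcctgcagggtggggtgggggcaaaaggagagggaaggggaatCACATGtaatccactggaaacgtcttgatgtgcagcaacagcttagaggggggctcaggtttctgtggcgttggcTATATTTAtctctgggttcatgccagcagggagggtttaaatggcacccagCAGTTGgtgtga
The E-boxes lie 138 to 133 and 12 to 7 bases before the start, the Mef2 core lies 63 to 56 bases before it, and none overlap. Of 32817 promoters of this length, 66.2% held at least 1 CANNTG and 31.8% held 2 or more, while 8.56% held the Mef2 core. Promoters matched for 8 of the 10 genes (not Myf6 or Myod1). CANNTG occurred 4 times for Mstn, 3 times for Cdh15, 1 time for Met, 2, 0 and 1 times for the 3 Mef2c starts, and 0 times for Myf5, Pax7 and Sdc4. The Mef2 core also occurred 1 time before the first Mef2c start. These matches are letters in a window; the arrays measured no binding.

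The authors' deposited table of group means, normalized by averaging with background subtracted, gives the same order of groups for Myog ILMN_2863674, at 49.8 in Sham+Saline, 197.7 in Sham+CDTX, 454.9 in SCI+CDTX and 841.1 in SCI+Saline. For Mef2c ILMN_2732465 the authors' deposited table lists 289.3 in SCI+CDTX against 926.6, 1052.6 and 1117.3 in SCI+Saline, Sham+CDTX and Sham+Saline. For Myod1 it lists 30.0 in Sham+Saline against 261.0 to 289.3 in the other groups in the authors' deposited table. Group means of Mstn are −5.7 to −2.1 in the authors' deposited table, at or under background. The authors' difference p-value for SCI+Saline against SCI+CDTX is 0.0051 for Myog ILMN_2863674 but 0.15 for Myog ILMN_2621812. For Mef2c ILMN_2887992 the authors' difference p-value for Sham+Saline against SCI+CDTX is 0.063. The authors' deposited table comes from the same series, so it is not separate support.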

How the data were processed

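The deposited raw table holds mean bead intensity per probe and array, with no normalization or background subtraction per the file headers, a detection p-value per probe and array, and bead numbers. The authors' final table holds average-normalized, background-subtracted intensity as group means, with a difference p-value, per the file headers. GenomeStudio 2011.1 is named in the submitters' processing notes. No per-sample column was left unmapped (0).

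Intensities of 15 arrays were background-corrected from the detection p-values (normexp, offset 16), quantile normalized and set to log2 (limma 3.58.1, R 4.3.3), which is the neqc procedure; the offset understates fold changes of dim probes. Group means were fitted to all 14763 tested probes with lmFit, contrasts.fit and eBayes. A probe was called where its p, adjusted by Benjamini-Hochberg over all tested probes of that comparison, was under 0.05. All adjusted p-values are limma's. Intervals are 95% intervals from the same fit. The code was tested on simulated data. The number of arrays limits the precision. The labels do not say whether arrays are separate animals, so p-values measure the spread between these samples.

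All member probes are named; of each list, at most the 2 highest and 2 lowest called genes per comparison may be named, and the 3 genes nearest each main probe. The main probe of a gene is its tested probe with the highest mean. The members, lists and settings were chosen with earlier results of these data known. Gene names of other probes were updated through Entrez identifiers for 4172 of 23681 matched probes. Alternatives were all 16 arrays, median scaling, no background correction, an offset of 50, no or a stricter detection filter (detection p under 0.01 throughout at least 1 group), only the groups compared, a replicate block, the paired-probe score, trended and robust eBayes, and each array left out. Promoters are from RefSeq GRCm38.p6.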

Additional observations from a re-analysis of the deposited data

Results flagged for a closer look

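For all 8 tested probes, of 5 genes, the effect of CDTX after SCI differed from that after sham surgery by limma's interaction term. Of all tested probes, 23.6% were called in that term. The interaction was −2.69 for Myod1, −2.11 and −1.09 for Myog ILMN_2863674 and ILMN_2621812, −1.31 for Myf6 and −0.81 for Sdc4. For Mef2c ILMN_2887992, ILMN_1214950 and ILMN_2732465 it was −3.06, −2.40 and −1.69. With SCI+CDTX 2 in the fit 3 of the 8 interactions were called, and with the paired-probe score 1 was called. The shares of all tested probes called in those fits are not given here, so these drops cannot be set against them.

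Sham+Saline 1 stood apart on Sdc4, at a log2 level of 7.40 against 7.84 to 7.90 on the other 3 arrays of its group. It was the 1 such array in 32 groups of 4 that were checked, and about 1 in 20 groups is marked by chance. With SCI+CDTX 2 included, no SCI+CDTX probe met the same criterion.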

How the results depend on the processing

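Of 27 called probe differences, 25 alternatives each were run. All 27 kept their direction and call with median scaling, no background correction, an offset of 50, the stricter filter, only the groups compared and the trended eBayes. With all 16 arrays 22 did, with no detection filter 26, and with the paired-probe score 15. No pairing by replicate number was seen: 3 of 21 same-number pairs correlated over 0.1, against 12 of 63 different-number pairs. Of 15 arrays, 3 correlated best with their own number. With so few arrays this cannot show that the samples were unpaired. The replicate block left the counts of called probes at 6, 3, 5, 5 and 8 for CDTX after SCI, CDTX after sham, SCI with CDTX, SCI with saline and the interaction. Leaving out each array gave 6 to 7, 3 to 4, 5 to 5, 5 to 5 and 7 to 8.

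The count for CDTX after sham surgery was 5 with median scaling and 6 (2 higher, 4 lower) with the score. The score took SCI+CDTX against Sham+CDTX to 1 called probe and the interaction to 1. All 16 arrays took the interaction to 3. The shares of all tested probes called under these settings are not given here, so the counts describe the members only. With the score, the sham CDTX difference of Sdc4 reversed to −0.49. The SCI+CDTX against Sham+CDTX differences of Mef2c ILMN_1214950, ILMN_2887992 and ILMN_2732465 reversed to 0.28, 0.79 and 0.30, and their interactions to 0.69, 1.06 and 0.85. The interactions of Myf6 and Sdc4 reversed to 0.41 and 0.14. In that fit the score separates Sham+CDTX and SCI+CDTX 2 from the other 11 arrays, so values that rest on Sham+CDTX depend mainly on SCI+CDTX 2. The cause of this separation was not tested. Signals near background limit Pax7, Myf5, Met and Mstn.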
